A study of Mus musculus with 36 samples.

Results

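The genes of MHC class II antigen presentation were followed in whole lung of mice in a model of severe asthma. The 9 genes, chosen by name, were H2-Aa, H2-Ab1, H2-Eb1, Cd74, H2-DMa, H2-DMb1, H2-DMb2, H2-Ob and Ciita. They were taken by the gene symbol of their probe sets on an Affymetrix mouse whole-genome array, with every probe set of each gene. Of the 9 genes, 8 had a probe set with that symbol alone and passed the filter on low values, among 11599 genes tested. H2-DMb1 had only probe sets shared with H2-DMb2, so the 2 cannot be told apart there. In all, 21 probe sets carried these symbols, of which 18 named 1 gene and 3 named 2, and 20 passed the filter.

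The series holds 36 arrays of lung RNA from female C57BL/6 mice of 5 kinds, each given ovalbumin (OVA), an egg-white protein used as an allergen, or phosphate-buffered saline (PBS). OVA mice received 50 µg by the intraperitoneal route on days 1, 4 and 7 and then 20 µg by the nose every week for 9 weeks from day 12; PBS mice followed that schedule without the allergen. KitWsh mice carry the sash mutation of Kit, a strain known to lack mast cells. KitWsh_MC, KitWsh_MCifngR and KitWsh_MCigeR are KitWsh mice with the engraftment codes MC, MCifngR and MCigeR, which the labels do not spell out. The genotype label of the KitWsh_MCigeR mice is KitWsh/FcεRIγ-/-, which names a deletion of the Fc receptor gamma chain and does not say whether the mouse or the engrafted cells carry it. WT mice carry the intact gene. The groups given OVA had 4 arrays each, the WT group given PBS had 4, and the other groups given PBS had 3 each. The labels do not say that each array is a separate animal, so a p-value measures only the spread between these arrays, and in whole lung fewer cells of a type and less RNA per cell cannot be told apart.

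MHC class II molecules are paired alpha and beta chains that show peptides from engulfed material to CD4+ T cells. The invariant chain Cd74 holds the groove of new class II molecules shut, the H2-DM heterodimer exchanges the last fragment of that chain for peptide, and H2-O restrains H2-DM. The class II chains, Cd74 and H2-DM are switched on together by Ciita. This transactivator does not bind DNA itself but docks on factors at the shared X and Y boxes of class II promoters. In the lung they are carried by dendritic cells, macrophages and B cells, and in the mouse also by alveolar type 2 epithelial cells.

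The promoter letters are shown because they are what ties these genes together apart from their function. The class II genes lie near each other on chromosome 17, with the widest gap between H2-DMb1 and H2-Ob. H2-DMa is at 34119693 to 34139101, H2-DMb2 at 34143229 to 34151553 and H2-DMb1 at 34153191 to 34160229. H2-Ob is at 34238905 to 34245908, H2-Ab1 at 34263227 to 34269418, H2-Aa at 34282744 to 34287823 and H2-Eb1 at 34305867 to 34316674. Ciita lies on chromosome 16 at 10480014 to 10531064. These positions and the sequences are those of RefSeq on GRCm38.p6. Of the 9 genes, 6 had an entry of 250 bases before to 50 after the start of the transcript. Each stretch of 70 bases is printed along its gene's own strand, and capitals mark the Y box letters GATTGG and the fixed letters of CNNATGATG, taken from the X box in a form that was chosen after these promoters had been read.
H2-DMb2, chr17:34145108-34145177, plus strand: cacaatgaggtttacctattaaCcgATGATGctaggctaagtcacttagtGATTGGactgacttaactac
H2-DMb1, chr17:34153079-34153148, plus strand: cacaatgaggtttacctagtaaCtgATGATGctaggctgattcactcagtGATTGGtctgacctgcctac
H2-Ob, chr17:34238797-34238866, plus strand: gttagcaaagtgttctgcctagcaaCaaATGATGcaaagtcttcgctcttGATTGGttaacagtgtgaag
H2-Eb1, chr17:34305757-34305826, plus strand: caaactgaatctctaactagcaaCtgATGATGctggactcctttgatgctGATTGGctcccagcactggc
H2-Aa, chr17:34287853-34287922, minus strand: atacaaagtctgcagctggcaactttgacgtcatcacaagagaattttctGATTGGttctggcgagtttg

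The Y box letters stood 91, 62, 58, 60 and 49 bases before the annotated start of H2-DMb2, H2-DMb1, H2-Ob, H2-Eb1 and H2-Aa. CNNATGATG lay before them with 19 bases between in H2-DMb2, 19 in H2-DMb1, 16 in H2-Ob and 18 in H2-Eb1. H2-Aa did not hold CNNATGATG in the stretch of 300 bases searched on both strands, nor did either start of H2-DMa. Of 32851 mouse promoters of that length in the table, 16.1% held GATTGG, 2.75% held CNNATGATG and 0.341% held both. A match is a description of the letters and not a measured site.

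Values are log2 probe intensities after GCRMA, which the authors computed. A gene is represented by its probe set of highest mean, and a gene is called where limma's p, adjusted over the 11599 genes, is under 0.05. The array KitWsh_MCigeR PBS 2 stood apart from all others: its median correlation with the other arrays was 0.543, against 0.882 to 0.971 for the other 35, and its 3' minus 5' beta-actin difference, a sign of RNA quality, was 8.43, against 1.17 to 6.23. Results are therefore given over all 36 arrays and over the 35 without it. The array labelled WT OVA 4 had a Kit signal of 6.90, whereas the remaining WT OVA arrays had 10.6 to 11.0. That array and KitWsh_MCifngR OVA arrays 2 and 3 had mean signals of Y-linked genes of 7.28, 7.71 and 7.30, against 2.19 to 2.66 in the other 33, although all are labelled female. "Without 4 arrays" below means without these 3 and the one that stood apart. The 9 markers of alveolar type 2 cells averaged 12.59 to 13.75 over the 35 arrays, the level of genes abundant on these arrays.

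**Figure D1:**
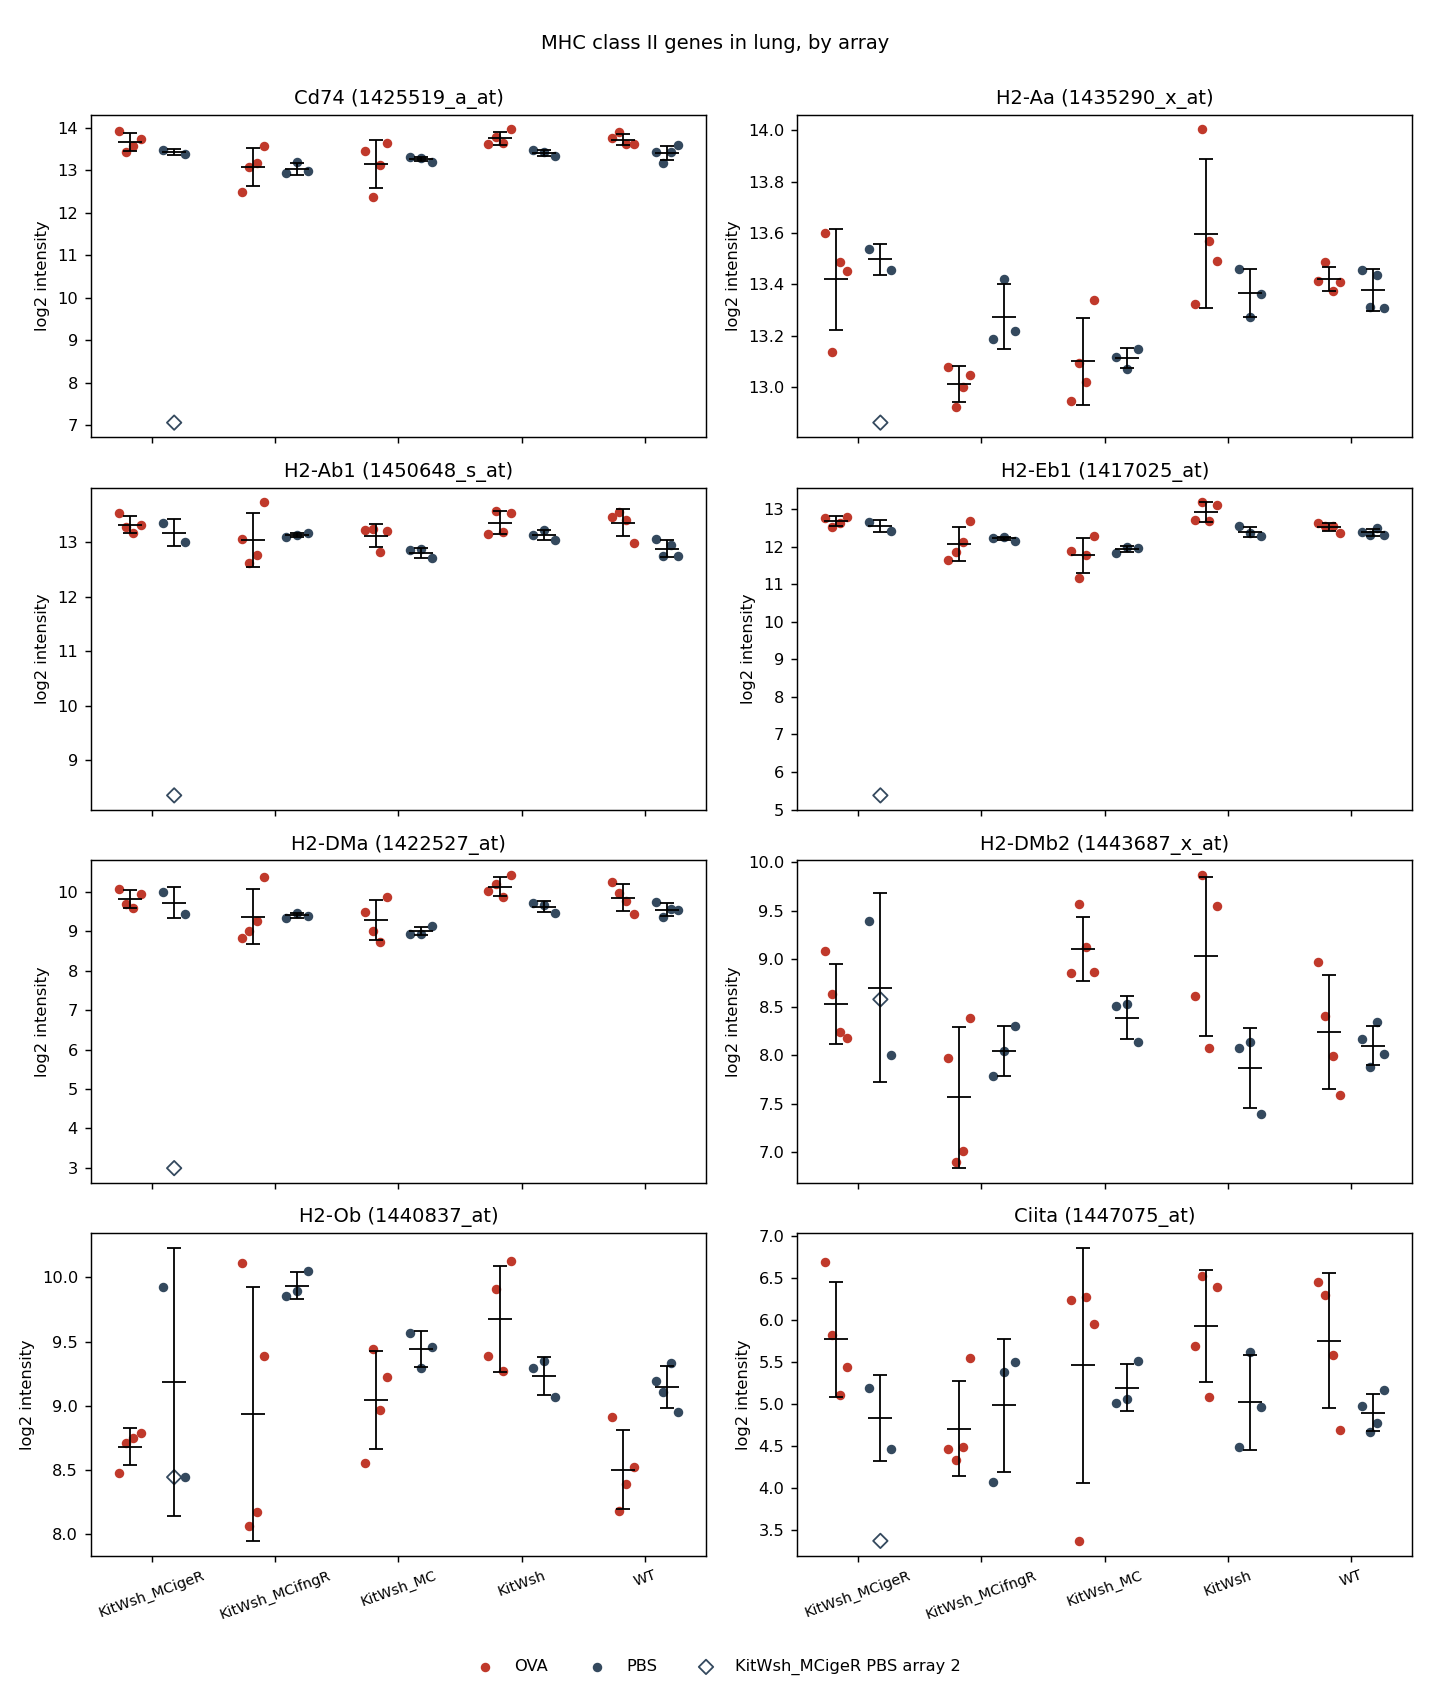
Log2 intensity (vertical axis) of the 8 tested genes, 1 panel each, in the 5 kinds of mice, with OVA left of PBS in each kind. Points are arrays, bars are the mean and SD over 35 arrays, and the open diamond is KitWsh_MCigeR PBS array 2, which lies far below every other array for Cd74 (7.06), H2-Eb1 (5.38), H2-Ab1 (8.35) and H2-DMa (2.99).

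The OVA minus PBS difference was positive for all 8 genes in KitWsh mice and for 7 of 8 in WT mice. Over 35 arrays it was positive for 4 of 8 in KitWsh_MC, 1 of 8 in KitWsh_MCifngR and 5 of 8 in KitWsh_MCigeR mice. Without 4 arrays the count in KitWsh_MCifngR mice was 5 of 8. In the mean of the 5 kinds it was positive for 6 of 8 over 35 arrays and for 7 of 8 over 36. In the comparison averaged over the 5 kinds, none of the 8 genes was called over 36 arrays, where 8.79% of all genes were higher and 7.8% lower. Over 35 arrays 1 was called, H2-Ob, which fell, where 12.2% of all genes were higher and 15.3% lower. The median difference over the 8 genes was 0.19 on the log2 scale, against -0.02 over all genes. The call of H2-Ob was lost without 4 arrays (log2 difference -0.26, limma adjusted p = 0.117), and H2-Ab1 (0.31, 0.00204), Ciita (0.67, 0.0438) and H2-DMb2 (0.44, 0.0444) were called higher instead, where 14.8% of all genes were higher. With limma's array weights, which count noisier arrays less, 7 of 8 were called in KitWsh mice, 4 in WT mice and 5 in the mean of the kinds, where 39.8%, 44% and 49.7% of all genes were called.

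Within single kinds, all 36 arrays gave no called class II gene in WT (1.36% of all genes called either way), KitWsh (0.621%), KitWsh_MC (6.52%) or KitWsh_MCifngR mice (0.155%). At an unadjusted p under 0.05 the counts were 0, 1, 0 and 1 of the 8, where 15.5%, 13.1%, 20.1% and 5.42% of all genes passed. Over 35 arrays these 4 kinds again gave none, where 9.32%, 6.55%, 20.5% and 0.776% of all genes were called, and the unadjusted counts were 2, 2, 0 and 2, where 27.9%, 24.7%, 34.6% and 12% of all genes passed. In KitWsh_MCigeR mice 4 genes were called higher over 36 arrays (16% of all genes higher), and none over the 35 (0 of all genes). The unadjusted counts there were 5 with the array that stood apart, where 45.7% of all genes passed, and 0 without it, where 6.35% did.

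**Figure D2:**
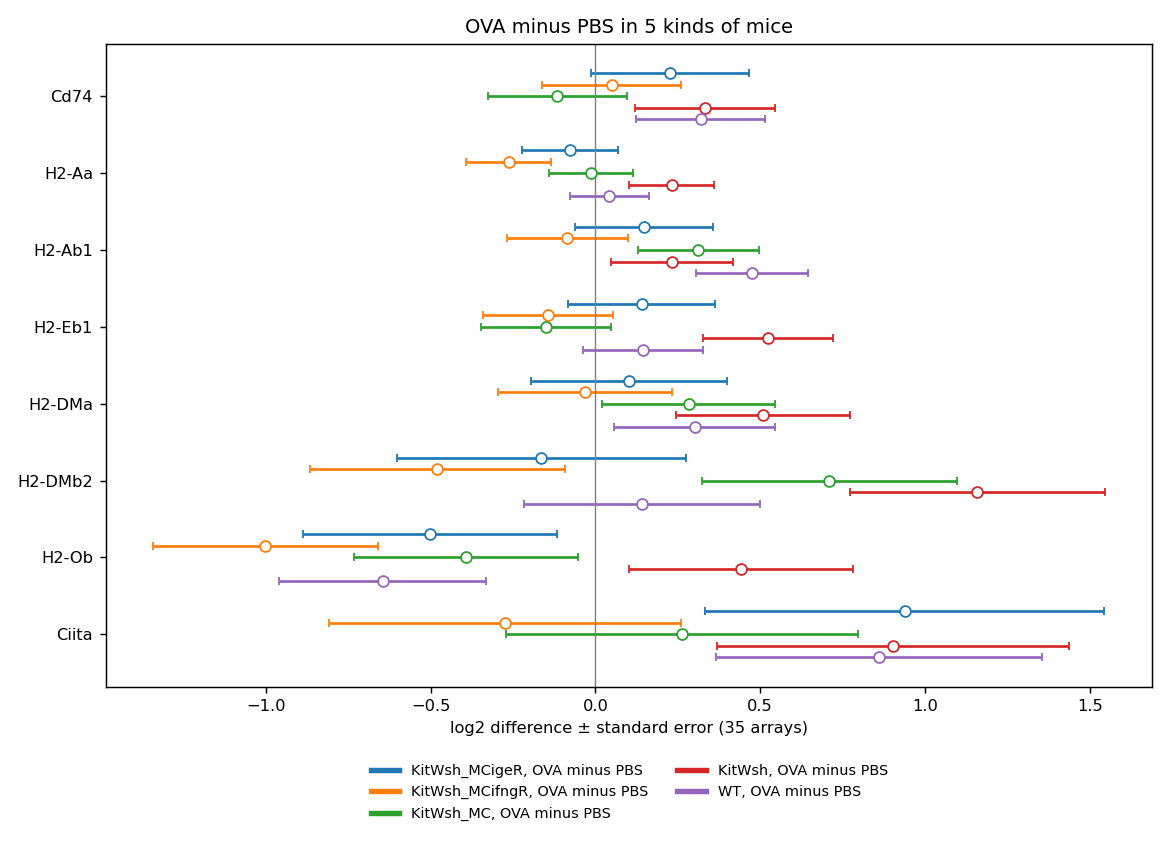
OVA minus PBS difference (log2, horizontal axis) of each of the 8 genes in each kind of mice, over the 35 arrays. Points are fitted differences and bars are standard errors, and open points are genes not called; all are open, with values on both sides of 0.

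H2-Ab1, the beta chain of the I-A molecule, was read by several probe sets. On the brightest it measured 13.46, 13.55, 13.41 and 12.99 in WT OVA lungs, against 13.06, 12.74, 12.95 and 12.75 in WT PBS lungs. Only the array labelled WT OVA 4 lay within the range of the PBS arrays. The difference was 0.48 ± 0.17 (SE, log2) with a limma adjusted p of 0.0703 over 35 arrays and 0.789 over 36, and 0.60 ± 0.15 with an adjusted p of 0.0085 without 4 arrays. Averaged over the kinds it was 0.22 ± 0.08 (adjusted p = 0.0532, 35 arrays). On 1451721_a_at the OVA minus PBS difference was 1.12 in KitWsh mice, with no overlap, and 0.66 in WT mice, and on 1425477_x_at it was 0.95 in KitWsh mice, again with no overlap, and 0.75 in WT mice. None of these 4 was called over 35 arrays (limma adjusted p over probe sets 0.0966, 0.243, 0.116 and 0.137).

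H2-Eb1, the beta chain of the I-E molecule, measured 12.70, 13.18, 12.68 and 13.10 in KitWsh OVA lungs, against 12.54, 12.35 and 12.28 in KitWsh PBS lungs. The groups did not overlap, but the difference of 0.52 ± 0.20 did not pass the test over 35 arrays (limma adjusted p = 0.0944). Of the 8 genes, 3 were above every PBS array in KitWsh mice, where 7.53% of all genes were; the other 2 were Cd74 and H2-DMa. C57BL/6 mice lack a functional I-E alpha chain, so the I-E beta transcript is measured here without its partner on the cell surface. H2-Aa, the alpha chain of I-A, differed by 0.04 in WT and 0.23 in KitWsh mice on its brightest probe set, neither called.

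Between the kinds of mice given OVA, H2-Eb1 measured 11.88, 11.16, 11.78 and 12.28 in KitWsh_MC OVA lungs, against 12.70, 13.18, 12.68 and 13.10 in KitWsh OVA lungs. Every KitWsh_MC array lay below every KitWsh array, as it did for 8.99% of all genes. The difference was -1.14 ± 0.18, a level 0.454 times that of KitWsh (limma adjusted p = 0.000102 over 35 arrays; -1.14 ± 0.79, 0.397 over 36, where the array that stood apart widens the shared spread). In that comparison over 35 arrays 4 of the 8 genes were called lower and none higher, where 16.6% of all genes were lower and 14.9% higher, and over 36 arrays only H2-Aa was called, where 3.4% of all genes were lower. The median of the 8 genes was -0.55, against -0.02 for all genes.

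H2-Aa on its brightest probe set measured 12.94, 13.10, 13.02 and 13.34 in KitWsh_MC OVA lungs, against 13.32, 14.00, 13.57 and 13.49 in KitWsh OVA lungs. The highest KitWsh_MC array just reached the lowest KitWsh array, and the difference was -0.50 ± 0.12 (limma adjusted p = 0.00274 over 35 arrays; -0.50 ± 0.15, 0.0296 over 36). A probe set of H2-Aa with dimmer signal, 1452431_s_at, measured 10.86, 8.65, 11.08 and 11.60 in KitWsh_MC OVA lungs, against 11.52, 12.49, 11.85 and 12.43 in KitWsh OVA lungs. Its difference of -1.52 ± 0.36 (adjusted p over 23091 probe sets = 0.00276, 35 arrays) was larger than that of the brightest probe set. Array 2 of KitWsh_MC OVA, at 8.65, was the lowest, and without it as well the difference was -0.89 ± 0.22 (0.00761). H2-Ab1 was not called on its brightest probe set (-0.24 ± 0.17, adjusted p = 0.296), whereas its probe sets 1451721_a_at and 1425477_x_at gave -1.30 ± 0.37 (0.00919) and -1.07 ± 0.33 (0.0154). In all, 11 of the 20 tested probe sets were called lower over 35 arrays, where 17.8% of all probe sets were, and 3 over 36 arrays, where 5.15% were. Without KitWsh_MC OVA array 2 as well, 6 were called lower, and 1451721_a_at (-0.95 ± 0.36, 0.0628) and 1425477_x_at (-0.90 ± 0.35, 0.0695) were not among them. The share of all probe sets in that fit is not given here.

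KitWsh_MCigeR mice given OVA stood above KitWsh_MC mice given OVA in H2-Eb1, with 12.76, 12.51, 12.63 and 12.80, against 11.88, 11.16, 11.78 and 12.28. The groups did not overlap, as was so for 8.76% of all genes, and the difference of 0.90 ± 0.18 was a 1.87-fold level (limma adjusted p = 0.00181 over 35 arrays; 0.587 over 36, where none of the 8 genes and 2.93% of all genes were called). It was the 1 gene called of the 8, where 13.4% of all genes were higher and 7.6% lower over 35 arrays. H2-Aa differed by 0.32 ± 0.12 and did not pass the test (adjusted p = 0.0543). Of the 20 probe sets 4 were called higher over 35 arrays, where 11% of all probe sets were, and none over 36, where 0.931% were. They were 1 of H2-Eb1, 2 of H2-Aa and 1451721_a_at of H2-Ab1, and without KitWsh_MC OVA array 2 as well, that of H2-Eb1 alone was called. For that last fit the share of all probe sets is not given here. KitWsh_MCifngR mice given OVA did not differ by a call from KitWsh_MC mice in H2-Aa, H2-Ab1 or H2-Eb1 on their brightest probe sets, whereas H2-DMb2 did, as given below. These comparisons share the 4 KitWsh_MC OVA arrays, so they are not independent of each other: the H2-Eb1 differences side by side were 0.90 for KitWsh_MCigeR minus KitWsh_MC and -1.14 for KitWsh_MC minus KitWsh.

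**Figure D3:**
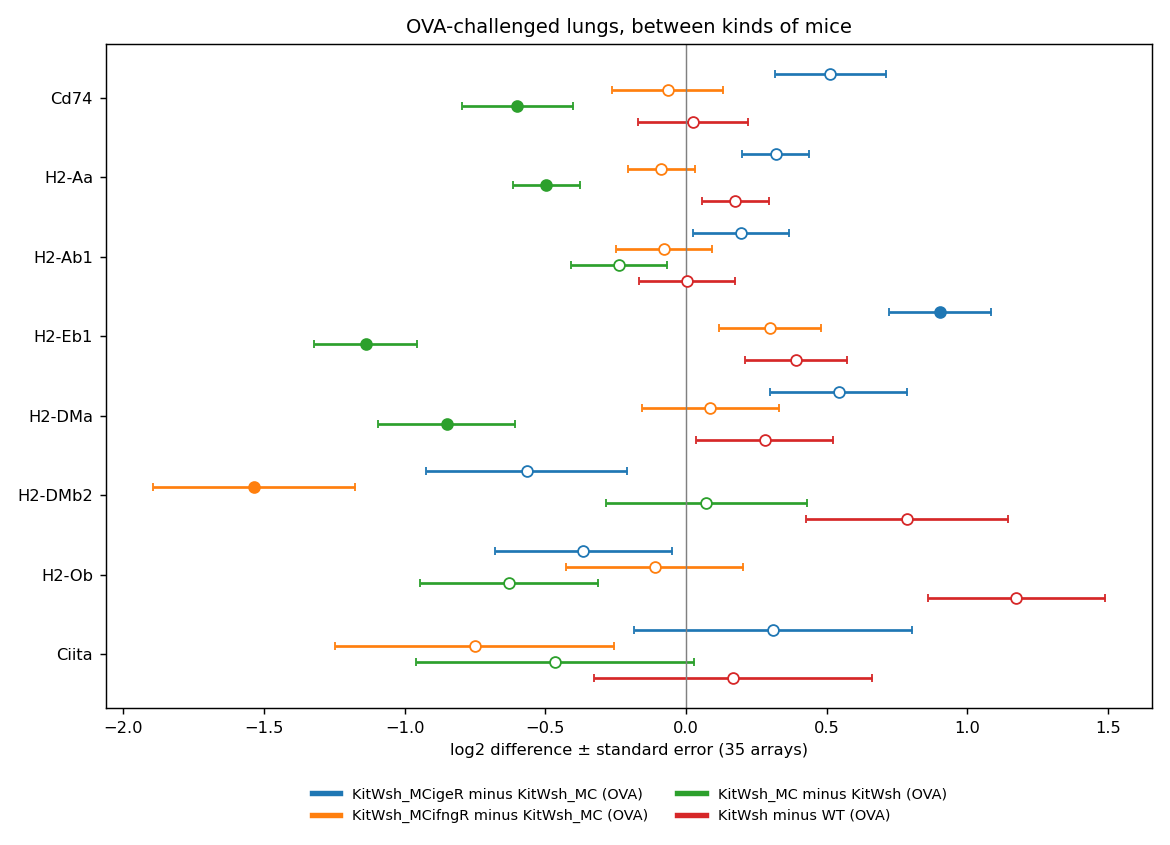
Difference between kinds of mice given OVA (log2, horizontal axis) of each of the 8 genes over 35 arrays, in 1 panel with a colour for each pair of kinds and standard errors as bars. Filled points are called genes: H2-Eb1 (-1.14), H2-Aa (-0.50), H2-DMa (-0.85) and Cd74 (-0.60) in KitWsh_MC minus KitWsh, H2-DMb2 (-1.54) in KitWsh_MCifngR minus KitWsh_MC, and H2-Eb1 (0.90) in KitWsh_MCigeR minus KitWsh_MC.

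RNA quality moved with this contrast. The 3' minus 5' beta-actin difference was 2.21 to 6.23 in KitWsh_MC OVA, against 1.29 to 2.62 in KitWsh OVA, and 1.55 to 2.58 in KitWsh_MCigeR OVA. With that difference as a covariate over 35 arrays, KitWsh_MC minus KitWsh was -0.87 ± 0.18 for H2-Eb1 (limma adjusted p = 0.00247) and -0.46 ± 0.13 for H2-Aa (0.0204). H2-DMa (-0.73 ± 0.28, 0.0679) and Cd74 (-0.24 ± 0.17, 0.355) were no longer called with it. Over all 36 arrays, where the array that stood apart has by far the highest covariate, the covariate turned the estimates to 0.02 ± 0.44 for H2-Eb1, 0.19 ± 0.49 for H2-DMa and 0.48 ± 0.36 for Cd74, none called, whereas H2-Aa stayed at -0.39 ± 0.13 (0.0478). KitWsh_MC OVA array 2 had the highest beta-actin difference of these groups, and without it as well the values were -0.93 ± 0.17 for H2-Eb1 (0.000696), -0.50 for H2-Aa (0.00765), -0.76 for H2-DMa (0.0397) and -0.34 ± 0.17 for Cd74 (0.153). The H2-Eb1 difference of KitWsh_MCigeR minus KitWsh_MC was 0.67 ± 0.17 with the covariate (0.0219) and 0.70 ± 0.17 without that array (0.0127), both over 35 arrays, and -0.11 ± 0.43 with the covariate over 36.

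**Figure D4:**
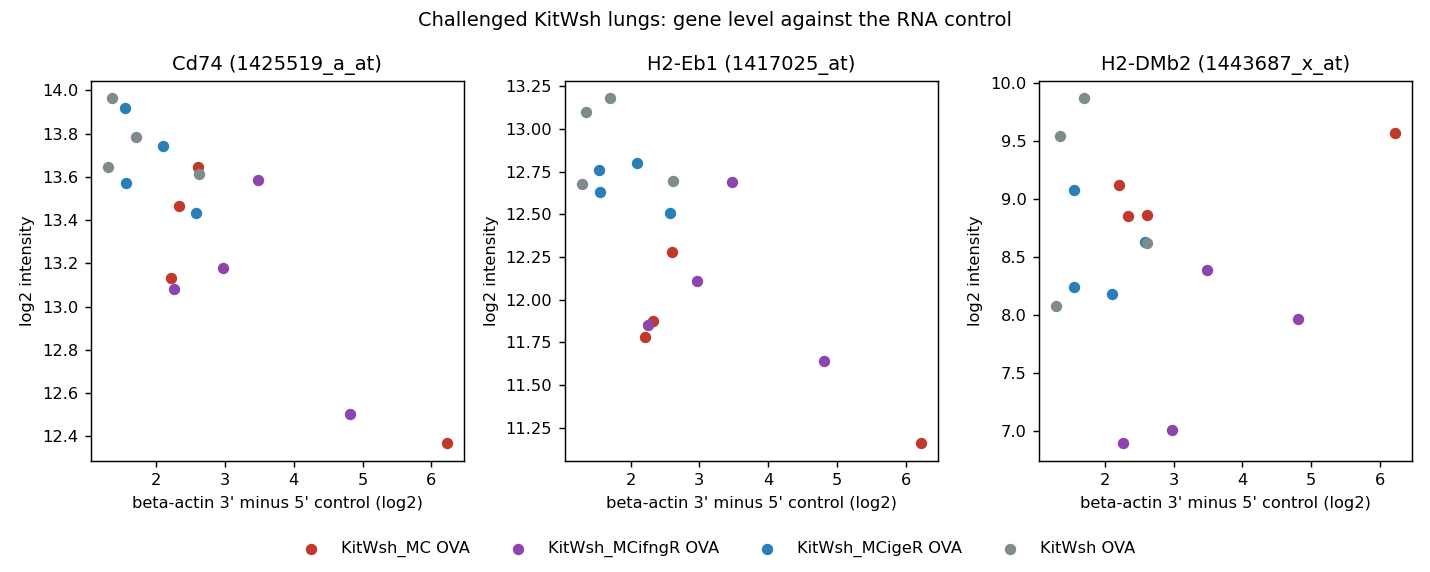
Log2 intensity (vertical axis) of Cd74, H2-Eb1 and H2-DMb2 against the 3' minus 5' beta-actin difference (horizontal axis, log2) in the 4 KitWsh groups given OVA, 1 point an array. KitWsh_MC OVA array 2, at 6.23, has the lowest Cd74 (12.37) and H2-Eb1 (11.16) of its group and the highest H2-DMb2 (9.57).

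Cd74, the invariant chain, lies on chromosome 18 at 60803849 to 60812652. It measured 13.75, 13.91, 13.63 and 13.62 in WT OVA lungs, against 13.43, 13.18, 13.44 and 13.59 in WT PBS lungs. The groups did not overlap, but the difference of 0.32 ± 0.20 did not pass the test (limma adjusted p = 0.293, 35 arrays). In WT mice 1 of the 8 genes was above every PBS array, where 7.6% of all genes were, and H2-Ob was below every PBS array, where 11.9% of all genes were. Without 4 arrays 5 of the 8 were above every PBS array, where 20.4% of all genes were, and 1 was below. In KitWsh mice Cd74 measured 13.61, 13.78, 13.65 and 13.96 with OVA and 13.48, 13.43 and 13.34 with PBS, a difference of 0.33 ± 0.21 (0.336).

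Between kinds given OVA, Cd74 measured 13.46, 12.37, 13.13 and 13.65 in KitWsh_MC lungs, against 13.61, 13.78, 13.65 and 13.96 in KitWsh lungs. The groups overlapped, array 2 of KitWsh_MC was by far the lowest, and the difference was -0.60 ± 0.20 (limma adjusted p = 0.0209 over 35 arrays and 0.66 over 36). The values without array 2 and with the RNA-quality covariate, both not called, are those given above. In KitWsh_MCigeR mice given OVA Cd74 measured 13.92, 13.43, 13.57 and 13.74, which was 0.51 ± 0.20 above KitWsh_MC and did not pass the test.

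The peptide exchange genes did not read alike in KitWsh_MC minus KitWsh mice given OVA, where H2-DMa was called over 35 arrays and H2-DMb2 was not. H2-DMa, the alpha chain of H2-DM, measured 9.51, 9.02, 8.74 and 9.88 in KitWsh_MC OVA lungs, against 10.03, 10.20, 9.88 and 10.43 in KitWsh OVA lungs. The groups met at 9.88, and the difference was -0.85 ± 0.24, a level 0.555 times that of KitWsh (limma adjusted p = 0.00961 over 35 arrays and 0.54 over 36). Its other probe set, 1459872_x_at, did not pass the filter and was over 5 in 1 array only.

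H2-DMb2, a beta chain of H2-DM, showed no called difference in this contrast on its brightest probe set. It measured 8.85, 9.57, 9.12 and 8.86 in KitWsh_MC OVA lungs, against 8.62, 9.87, 8.08 and 9.54 in KitWsh OVA lungs, a difference of 0.07. Every KitWsh_MC array lay within the range of the KitWsh arrays. Its probe set 1419744_at, by contrast, was lower in KitWsh_MC (-1.42 ± 0.52, adjusted p over probe sets = 0.0398, 35 arrays). The probe sets of H2-DMb2 therefore did not give 1 answer in this contrast.

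H2-DMb2 was the 1 class II gene that differed in the KitWsh_MCifngR mice given OVA. It measured 7.97, 6.89, 7.01 and 8.39 there, against 8.85, 9.57, 9.12 and 8.86 in KitWsh_MC OVA lungs. Every KitWsh_MCifngR array lay below every KitWsh_MC array, as was so for 2.7% of all genes, and the difference was -1.54 ± 0.36, a level 0.345 times that of KitWsh_MC (limma adjusted p = 0.00648 over 36 arrays and 0.00164 over 35). Over 36 arrays 2.77% of all genes were lower in this comparison and 10.4% higher, and over 35 arrays 7.47% and 29.2%.

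The 2 lowest of these arrays, KitWsh_MCifngR OVA 2 and 3, are those with signal of Y-linked genes. Without 4 arrays, the remaining KitWsh_MCifngR arrays were 7.97 and 8.39 and the difference was -0.92 ± 0.39, not called (limma adjusted p = 0.0696). With array 2 left out beside the one that stood apart it was -1.31 (0.00877), and with array 3 left out -1.35 (0.00897). With the beta-actin difference as a covariate over 35 arrays it was -1.54 ± 0.35 (0.000909). A second probe set of H2-DMb2, 1443686_at, gave -1.63 ± 0.38 (adjusted p over probe sets = 0.00209, 35 arrays) and -0.995 ± 0.42 without 4 arrays, where it was not called (0.0755).

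The probe set 1418638_at is shared by H2-DMb1 and H2-DMb2, as is 1449580_s_at below, and does not read H2-DMb1 alone. In KitWsh_MC mice it measured 9.19, 9.86, 9.24 and 9.07 with OVA, against 8.51, 8.20 and 8.24 with PBS. The groups did not overlap, and the difference of 1.03 ± 0.26 was called over 35 arrays (limma adjusted p over probe sets = 0.00815, with 8.52% of all probe sets higher) and not over 36 (0.235). Averaged over the 5 kinds this probe set was higher after OVA by 0.80 ± 0.23 over 36 arrays (0.0168, with 7.65% of all probe sets higher) and by 0.54 ± 0.12 over 35 (0.00209, with 10.2% of all probe sets higher). By kind the differences were 0.56 in WT, 0.73 in KitWsh, 1.03 in KitWsh_MC, -0.07 in KitWsh_MCifngR and 0.47 in KitWsh_MCigeR mice over 35 arrays. It was lower in KitWsh_MCifngR OVA (7.96, 7.80, 8.13 and 8.55) than in KitWsh_MC OVA (9.19, 9.86, 9.24 and 9.07), with no overlap and a difference of -1.23 ± 0.24 (0.000596 over 35 arrays, where 7.96% of all probe sets were lower; 0.0894 over 36). Without 4 arrays it was -1.09 ± 0.28 (0.00629).

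The shared probe set 1449580_s_at read otherwise. It was 0.29 ± 0.14 higher after OVA averaged over the kinds and was not called (adjusted p = 0.136, 35 arrays). In KitWsh_MCifngR OVA minus KitWsh_MC OVA it was -0.51, again not called (0.185). H2-DMb2 itself measured 8.62, 9.87, 8.08 and 9.54 in KitWsh OVA lungs, against 8.08, 8.14 and 7.39 in KitWsh PBS lungs. The lowest OVA array lay within the PBS range, and the difference of 1.16 ± 0.39 was not called over 35 arrays (limma adjusted p = 0.0624) and was called without 4 arrays (± 0.35, 0.0371).

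H2-Ob, the beta chain of H2-O, which restrains H2-DM, measured 8.91, 8.18, 8.39 and 8.52 in WT OVA lungs, against 9.19, 9.11, 9.34 and 8.95 in WT PBS lungs. The groups did not overlap, but the difference of -0.65 ± 0.32 was not called (limma adjusted p = 0.178, 35 arrays). By kind the OVA minus PBS differences were -0.65 in WT, 0.44 in KitWsh, -0.39 in KitWsh_MC, -1.001 in KitWsh_MCifngR and -0.50 in KitWsh_MCigeR mice over 35 arrays, so the sign in KitWsh mice was opposite to that in the other 4 kinds, a contrast that is not called as a difference in response. In KitWsh_MCifngR mice the arrays were 10.11, 8.07, 8.17 and 9.38 with OVA, against 9.86, 9.90 and 10.05 with PBS. The 2 low arrays are again those with signal of Y-linked genes, and the difference was -0.19 without 4 arrays. Averaged over the kinds H2-Ob fell by 0.42 ± 0.15 on the log2 scale over 35 arrays (0.042); over 36 it was -0.37 ± 0.16 (0.1).

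In KitWsh OVA lungs H2-Ob measured 9.39, 9.91, 9.27 and 10.13, against 8.91, 8.18, 8.39 and 8.52 in WT OVA lungs. Every KitWsh array lay above every WT array, a 2.26-fold level with a log2 difference of 1.17 ± 0.32. It was not called over 36 arrays (limma adjusted p = 0.313) or 35 (0.114) and was called without 4 arrays (1.18 ± 0.26, 0.0177). None of the 8 genes was called in this comparison over 36 or 35 arrays, where 0.121% of all genes were over 36 arrays and 0.216% over 35, and all 8 differences were positive. Without 4 arrays 5 were positive and 3 negative, and H2-Ob was the 1 gene called, where 1.31% of all genes were. H2-Ob and H2-Eb1 were above every WT array, where 3.03% of all genes were. H2-Oa, the partner chain of H2-Ob, averaged 7.82 ± 0.44 in KitWsh OVA and 6.49 ± 0.47 in WT OVA (SD, n = 4 each), a difference of 1.33 ± 0.35 that was not called (limma adjusted p = 0.108, 35 arrays).

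B cells, which carry H2-O, have markers that lay on the same side: 11 of 12 B cell markers had positive differences of KitWsh OVA minus WT OVA, with a median difference of 1.07. None of these markers was called over 35 arrays, and 2 were called higher without 4 arrays, where 1.31% of all genes were called either way. Their mean level ranged over 7.49 to 8.53 in the KitWsh OVA arrays, against 6.89 to 7.67 in the WT OVA arrays. Ms4a1, which encodes the B cell surface protein CD20, averaged 10.21 in KitWsh OVA and 8.80 in WT OVA. This direction was not particular to B cells. In KitWsh OVA minus WT OVA over 35 arrays, 11 of 11 T cell markers had positive differences, with a median of 0.80. Of 6 pan-leukocyte markers 5 were positive (median 0.36), and of 12 dendritic cell markers 8 (0.31). Macrophage markers were positive for 4 of 17 (-0.17) and alveolar type 2 cell markers for 2 of 9 (-0.12). The part of B cell number in the H2-Ob values was not tested. The probe set 1422201_at, shared by H2-Ob and Gm20506, was lower in KitWsh_MC OVA than in KitWsh OVA (-1.02 ± 0.30, adjusted p over probe sets = 0.0119 over 35 arrays), whereas H2-Ob on its own probe set was not called there (-0.63 ± 0.32, 0.127).

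Ciita, the transactivator, was dim on every probe set, with values near the low end of these arrays, so its differences are the least certain. It measured 6.45, 6.31, 5.58 and 4.70 in WT OVA lungs, against 4.99, 4.67, 4.77 and 5.17 in WT PBS lungs. The array labelled WT OVA 4 lay within the PBS range and the other 3 lay above it. The difference was 0.86 ± 0.49 (limma adjusted p = 0.26 over 35 arrays) and 1.21 without 4 arrays (0.104). In KitWsh mice Ciita measured 5.70, 6.52, 5.09 and 6.40 with OVA, against 4.49, 5.62 and 4.97 with PBS (0.90 ± 0.53, 0.298). Its probe set 1421210_at was higher after OVA averaged over the kinds, by 0.49 ± 0.18 (adjusted p over probe sets = 0.0455 over 35 arrays; 0.53, 0.0398 over 36).

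In KitWsh_MC OVA lungs Ciita measured 6.25, 3.37, 6.28 and 5.95, against 5.70, 6.52, 5.09 and 6.40 in KitWsh OVA lungs. Array 2, with the high beta-actin difference, was at the low end of the scale, and the groups differed by -0.46, which was not called. Its probe set 1421211_a_at measured 5.55, 2.79, 5.84 and 5.04, against 5.80, 6.52, 5.83 and 6.74, and was called lower (-1.42 ± 0.50, adjusted p over probe sets = 0.0326, 35 arrays). Array 2 was the lowest on both probe sets, and without it as well 1421211_a_at differed by -0.74 ± 0.43 and was not called (0.226).

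The 4 genes called after OVA in KitWsh_MCigeR mice rested on the 1 PBS array that stood apart. Cd74 measured 13.92, 13.43, 13.57 and 13.74 with OVA, against 13.49, 7.06 and 13.39 with PBS. H2-Eb1 measured 12.76, 12.51, 12.63 and 12.80 with OVA, against 12.65, 5.38 and 12.42 with PBS. In both genes the other 2 PBS arrays lay within or close to the OVA range. The differences over 36 arrays were 2.35 ± 0.77 for Cd74 (limma adjusted p = 0.0458), 1.75 ± 0.59 for H2-Ab1 (0.0466), 2.35 ± 0.82 for H2-DMa (0.0482) and 2.53 ± 0.85 for H2-Eb1 (0.0467). Over 35 arrays they were 0.23 ± 0.24 (0.944), 0.15 ± 0.21 (0.972), 0.10 ± 0.30 (0.997) and 0.14 ± 0.22 (0.979).

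That array did not lower every probe set of a gene. For H2-Aa it read 3.15 on 1452431_s_at but 12.86 on 1435290_x_at, 13.48 on 1438858_x_at and 10.00 on 1443783_x_at, the last above all other arrays. For the H2-DM beta chains it read 3.38 on 1449580_s_at and 4.43 on 1418638_at but 8.58 on 1443687_x_at. The probe set 1443783_x_at also ran apart from the rest of H2-Aa elsewhere. It was higher in KitWsh_MC PBS (9.67, 9.09 and 8.54) than in KitWsh PBS (8.12, 7.75 and 8.09), by 1.12 ± 0.30 (adjusted p over probe sets = 0.0116 over 35 arrays, 0.0353 over 36), where 7.97% of all probe sets were higher over 35 arrays and 4.51% over 36. It was also higher in KitWsh OVA (9.02, 9.49, 8.78 and 9.11) than in KitWsh PBS, by 1.11 ± 0.28 (0.0294 over 35 arrays, where 0.927% of all probe sets were higher).

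**Figure D5:**
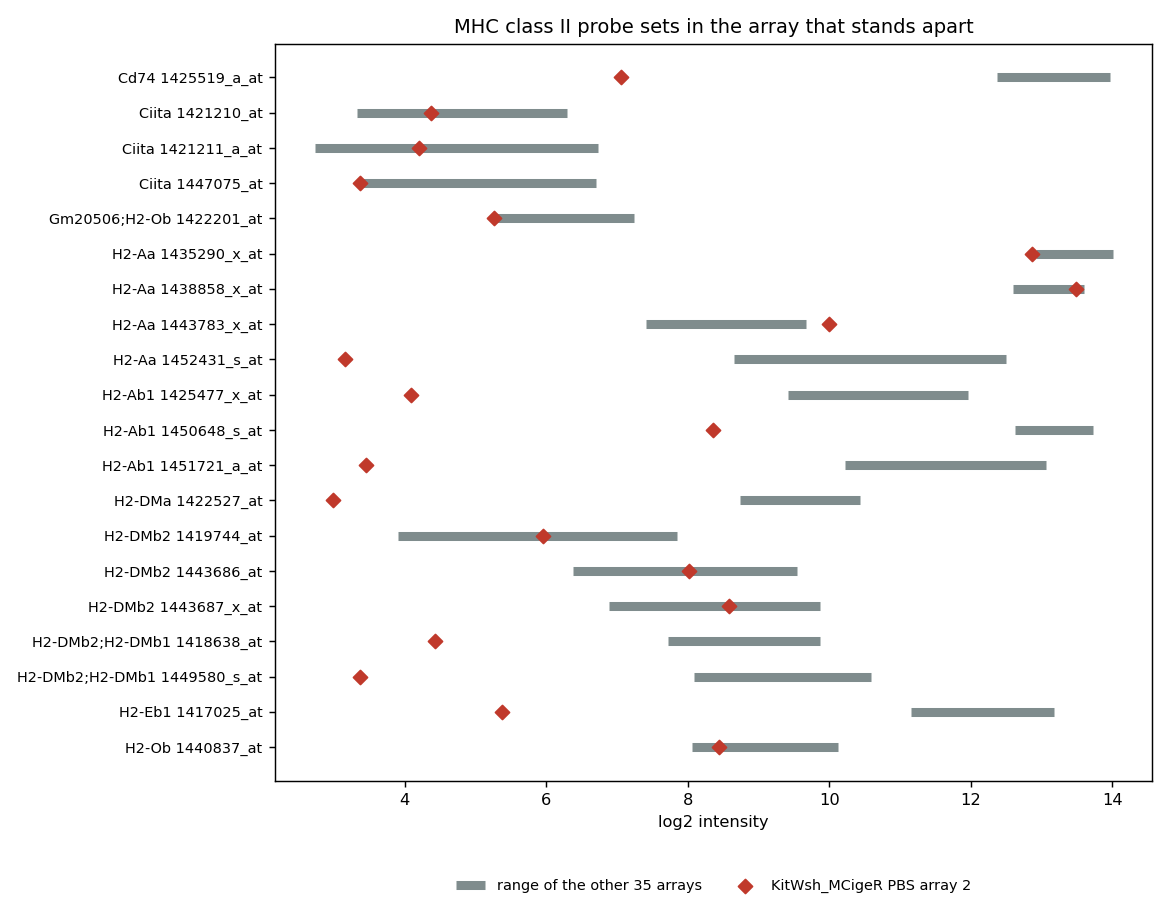
Log2 intensity (horizontal axis) of each class II probe set in KitWsh_MCigeR PBS array 2 (red diamond) and the range of the other 35 arrays (grey bar). H2-Aa spans 3.15 to 13.48 in this array by probe set.

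With PBS alone, none of the 8 genes was called between kinds. The shares of all genes called in KitWsh minus WT, KitWsh_MC minus KitWsh and KitWsh_MCifngR minus KitWsh_MC were 7.92%, 12% and 15.2% over 35 arrays and 1.18%, 1.2% and 2.91% over 36. In KitWsh_MC minus KitWsh, 5 genes lay below every KitWsh array without overlap, where 30.6% of all genes did: Cd74, H2-Aa, H2-Ab1, H2-Eb1 and H2-DMa. For H2-Eb1 the arrays were 11.83, 11.99 and 11.95 in KitWsh_MC PBS, against 12.54, 12.35 and 12.28 in KitWsh PBS. In KitWsh_MCifngR minus KitWsh_MC, 5 genes lay above every KitWsh_MC array, where 39.3% of all genes did, and 1 lay below, where 9.99% did. These groups had 3 arrays each, and such separation was common among all genes in these comparisons. The 3' minus 5' beta-actin difference was 2.33 to 3.41 in KitWsh_MC PBS, against 1.74 to 2.48 in KitWsh PBS. In KitWsh_MCifngR PBS it was 3.60 to 4.19. The part of RNA quality in this separation was not tested. None of the 8 genes was called for a different response to OVA between kinds, where 0.181%, 5.53%, 1.48% and 0.0259% of all genes were called over 35 arrays in KitWsh minus WT, KitWsh_MC minus KitWsh, KitWsh_MCifngR minus KitWsh_MC and KitWsh_MCigeR minus KitWsh_MC, and 0.00862%, 0.517%, 0.0345% and 0.293% over 36.

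By group mean over 35 arrays, KitWsh OVA was highest of the 10 groups for 6 of the 8 genes, namely Cd74 (13.75 ± 0.16, SD), H2-Aa (13.60 ± 0.29), H2-Ab1 (13.36 ± 0.22), H2-Eb1 (12.91 ± 0.26), H2-DMa (10.14 ± 0.24) and Ciita (5.93 ± 0.67). Without 4 arrays that count was 3, since KitWsh OVA then averaged below WT OVA for H2-Ab1 (13.36 against 13.47), Cd74 (13.75 against 13.76) and Ciita (5.93 against 6.11). The lowest groups were KitWsh_MC OVA for H2-Eb1 (11.77 ± 0.46), KitWsh_MC PBS for H2-DMa (9.00 ± 0.11) and H2-Ab1 (12.81 ± 0.09), KitWsh_MCifngR PBS for Cd74 (13.04 ± 0.14), and KitWsh_MCifngR OVA for H2-Aa (13.01 ± 0.07) and Ciita (4.71 ± 0.56). The KitWsh_MC and KitWsh_MCifngR groups also had the highest median 3' minus 5' beta-actin differences, 2.47 to 3.92, against 1.25 to 1.99 in the other groups over 35 arrays, and the part of RNA quality in these orders was not tested. H2-DMb2 was highest in KitWsh_MC OVA (9.10 ± 0.33) and lowest in KitWsh_MCifngR OVA (7.57 ± 0.73), and H2-Ob was highest in KitWsh_MCifngR PBS (9.94 ± 0.10) and lowest in WT OVA (8.50 ± 0.31). Most neighbours in these orders did not differ beyond their SDs: of 9 neighbouring pairs a gene, 2 did for H2-Eb1, 2 for H2-Aa, 1 for Cd74, 1 for H2-Ob and none for the others.

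Across the 35 arrays, which share 1 normalisation and the groups above, Cd74 ran with H2-Eb1 (Pearson r = 0.84), H2-DMa (0.79) and Ciita (0.70), and H2-Eb1 with H2-DMa (0.87). With H2-Aa (0.60) and H2-Ab1 (0.50) the values were lower, and Cd74 did not run with H2-DMb2 (0.23) or H2-Ob (-0.28). All of these are for the brightest probe sets. On other probe sets of the H2-DM beta chains, r with Cd74 was 0.58 (1419744_at), 0.19 (1443686_at), 0.22 (shared 1418638_at) and 0.80 (shared 1449580_s_at). These values describe the arrays and carry no test. Of all 11599 genes, those most like Cd74 over the 35 arrays were Rab5c (r = 0.882), H2-D1 (0.877), Gabarap (0.876), AI413582 (0.863) and Smn1 (0.86). Those most like Ciita were Gmip (0.805), Irf2bp2 (0.795), Sh3bp2 (0.792), Mrpl45 (0.785) and Junb (0.785). Cd74 was lowest in KitWsh_MC OVA array 2 (12.37) and KitWsh_MCifngR OVA array 1 (12.50). These arrays also had the highest 3' minus 5' beta-actin differences of the 35, 6.23 and 4.81. The part of RNA quality in these correlations was not tested.

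The partners of class II presentation, meaning the proteases that cut Cd74 and antigen and the promoter factors of the X and Y boxes, were followed as a list of their own. Averaged over the 5 kinds after OVA, 4 of 13 tested partners rose and none fell, over 35 and over 36 arrays alike in number. Of all genes, 12.2% were higher over 35 arrays and 8.79% over 36. The median of the partners over 35 arrays was -0.01, against -0.02 for all genes. The partners called were Nfya, a Y box factor (0.59 ± 0.09, limma adjusted p = 4.9e-05), Lgmn, a lysosomal protease (0.91 ± 0.14, 7.3e-05), Ctss, the protease that trims Cd74 (0.82 ± 0.14, 0.0002), and Ifi30, a thiol reductase of the lysosome (0.62 ± 0.13, 0.0009). Without 4 arrays 4 of the 13 partners and 3 of the 8 class II genes were higher, where 14.8% of all genes were. In KitWsh_MC minus KitWsh mice given OVA none of the 13 was called.

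Averaged over the kinds and over 35 arrays, where 12.2% of all genes were higher and 15.3% lower, 10 of 15 genes of the interferon-gamma response were called higher and none lower, with a median of 0.47 (9 higher over 36 arrays), among them Cxcl9 (3.06) and Cxcl10 (1.90), chemokines that draw T cells. Of 13 class I genes 9 were called higher and none lower, with a median of 0.34 (3 higher over 36 arrays), among them Tap1 (0.58), a subunit of the peptide transporter. Over 36 arrays 8.79% of all genes were higher in the mean of the kinds. In KitWsh_MC minus KitWsh mice given OVA, where 16.6% of all genes were lower, 2 of 13 class I genes were lower, B2m, the light chain of class I (-0.89 ± 0.17, limma adjusted p = 0.00046), and H2-D1, a class I heavy chain (-0.62 ± 0.17, 0.0078). Of the 15 genes of the interferon-gamma list 3 were lower there, Jak1 (-1.52), Irf8 (-0.82) and Ifngr1 (-0.50). Both counts lie near the share of all genes. None of these 5 was called over 36 arrays.

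Markers of the cells that carry class II were set beside the KitWsh_MC minus KitWsh contrast in OVA mice, over 35 arrays, where 14.9% of all genes were higher and 16.6% lower. Of 12 B cell markers none was called (3 lower without 4 arrays), with a median of -0.53 and summed levels, as a mean over the list, of 7.13 to 7.87 in KitWsh_MC OVA and 7.49 to 8.53 in KitWsh OVA. Of 12 dendritic cell markers 2 were higher and 1 lower, with a median of -0.04 and mean levels of 7.43 to 7.73 in KitWsh_MC OVA and 6.85 to 7.79 in KitWsh OVA. Of 17 macrophage markers 1 was higher and 3 lower, with a median of 0.14. Of 6 pan-leukocyte markers 1 was higher and 2 lower, and 5 differences were negative, with a median of -0.47. Of 11 T cell markers 3 were lower and all 11 differences were negative, with a median of -0.54. Of 9 alveolar type 2 cell markers 1 was higher and 2 lower, with a median of -0.06 and mean levels of 12.75 to 13.42 in KitWsh_MC OVA and 13.21 to 13.49 in KitWsh OVA. In KitWsh_MCifngR minus KitWsh_MC mice given OVA, 1 dendritic cell marker was higher and 3 lower (median -0.54), and 1 B cell marker was lower (median -0.58), where 29.2% of all genes were higher and 7.47% lower. Without 4 arrays no dendritic cell marker was higher and 3 were lower (median -0.36), and 1 B cell marker was higher and none lower (median 0.36, against 0.23 for all genes). No share of all genes is given here for the marker counts without 4 arrays, so they are counts only. The part of cell numbers in the class II differences was not tested.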

How the data were processed

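Lung RNA was measured on 36 Affymetrix arrays. The authors deposited log2 intensity per probe set; the submitters' processing notes name GCRMA, and its version is not given in those notes. GCRMA corrects background by probe sequence, so dim probe sets sit on a floor. No further normalisation was applied. Of 45101 probe sets, 64 controls were left out. Of all probe sets, 34958 carried 1 symbol, 932 several and 9211 none in the platform annotation, which can be old. The probe set with the highest mean stood for its gene, and genes over 5 (log2) in at least 3 arrays were tested. Means of the 10 groups were fitted to all 36 arrays with limma 3.58.1 in R 4.3.3, which left 26 residual degrees of freedom, and 17 comparisons were drawn from that fit. P-values were adjusted by Benjamini-Hochberg over 11599 genes, or over 23091 probe sets, and the threshold was 0.05. Fits over 35 arrays (25 degrees of freedom) and 32 arrays (22) are given beside it.

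Named genes are the 9 members in every comparison, up to 4 called genes of a list with the smallest adjusted p in a comparison described, and the 5 genes with the highest correlation to Cd74 and to Ciita over 35 arrays; Ms4a1 and H2-Oa were named after their values were seen. The members and the lists were chosen with earlier results of these data known. Promoters came from RefSeq GRCm38.p6. The fit was tested on simulated data. Alternatives changed the filter, scaling, probe set rule, arrays in the fit, array weights and an RNA-quality covariate. An array's number is its order within its group and pairs nothing. The number of arrays limits the precision.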

Additional observations from a re-analysis of the deposited data

Results flagged for a closer look

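In 7 of 120 tests of a probe set in a group of 4 arrays, the highest or lowest array stood apart from the other 3 by Dixon's criterion; about 6 would be set apart by chance. Of these, 4 fell on Ciita, which is dim. Its probe set 1421210_at read 5.92 in KitWsh_MCigeR OVA array 1, against 4.37 to 4.63 in the other 3, and 4.61 in WT PBS array 1, against 4.33 to 4.35. Its probe set 1447075_at read 3.37 in KitWsh_MC OVA array 2, against 5.95 to 6.28, and 5.55 in KitWsh_MCifngR OVA array 4, against 4.34 to 4.49. H2-Ab1 read 10.8 on 1425477_x_at in the array labelled WT OVA 4, against 11.74 to 11.90, and 12.8 on 1450648_s_at in KitWsh_MC OVA array 3, against 13.19 to 13.25. H2-DMb2 read 4.67 on 1419744_at in KitWsh OVA array 1, against 7.41 to 7.84.

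Without KitWsh_MCigeR PBS array 2, 1 of 20 probe sets, H2-Aa 1443783_x_at, was called for a different response to OVA in KitWsh_MC and KitWsh mice. The KitWsh_MC response minus the KitWsh response was -1.53 ± 0.40 on the log2 scale (limma adjusted p over probe sets = 0.0254). Of all genes, 5.53% were called in that comparison without that array. The share of all probe sets is not given here, so 1 of 20 is a count only. Over all arrays none of the 20 was called.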

How the results depend on the processing

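Numbers are class II genes called of 8, adjusted over all genes. Shares of all genes stand beside the counts with array weights alone. The other counts here have no share beside them and are counts only. That share moves between settings: in KitWsh_MC minus KitWsh given OVA 3.4% of all genes were lower over 36 arrays and 16.6% over 35. Without 4 arrays the count was 1 in OVA minus PBS of WT and of KitWsh mice and 3 in the mean of the 5 kinds (0 over 36 arrays in each), 0 in KitWsh_MCigeR mice (4 over 36), and, in OVA mice, 1 in KitWsh minus WT, 5 in KitWsh_MC minus KitWsh (1 over 36), 0 in KitWsh_MCifngR minus KitWsh_MC (1 over 36) and 1 in KitWsh_MCigeR minus KitWsh_MC. With limma's array weights the counts in that order were 4, 7, 5, 0, 3, 5, 2 and 1, where 44%, 39.8%, 49.7%, 0.879%, 7.25%, 30.2%, 36.6% and 14.6% of all genes were called, with 3 in KitWsh_MCifngR OVA minus PBS (17.5%), 2 in KitWsh_MC minus KitWsh (33.8%) and 1 in KitWsh_MCifngR minus KitWsh_MC (39.5%) under PBS, and 3 (21.7%), 2 (19.1%) and 2 (21.7%) in the responses of KitWsh minus WT, KitWsh_MC minus KitWsh and KitWsh_MCifngR minus KitWsh_MC. With the beta-actin covariate over 35 arrays the counts were 1 in KitWsh OVA minus PBS, 2 in the mean of the kinds, 3 in KitWsh_MC minus KitWsh and 1 in KitWsh_MCigeR minus KitWsh_MC. The 4 calls of KitWsh_MCigeR OVA minus PBS fell to 0 with no filter, with probe sets averaged, with the covariate and with only the compared groups. Only the compared groups gave 1 in WT OVA minus PBS, and 2 in each of KitWsh_MC minus KitWsh and KitWsh_MCifngR minus KitWsh_MC under PBS. Centring, or the mean of probe sets, gave 1 in the mean of the kinds and 0 in KitWsh_MC minus KitWsh given OVA.

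Leaving out 1 of the 36 arrays at a time gave 0 to 1 in KitWsh_MCifngR OVA minus PBS, 0 to 5 in KitWsh_MCigeR, 0 to 3 in the mean of the kinds, 0 to 4 in KitWsh_MC minus KitWsh, 1 to 2 in KitWsh_MCifngR minus KitWsh_MC and 0 to 1 in KitWsh_MCigeR minus KitWsh_MC given OVA, 0 to 4 in the response of KitWsh_MCigeR minus KitWsh_MC, and 0 in the other 10 comparisons. With KitWsh_MCigeR PBS array 2 out as well, the counts were 0 to 1 in WT, KitWsh and KitWsh_MCifngR OVA minus PBS, 0 in KitWsh_MCigeR, 0 to 3 in the mean of the kinds, and, given OVA, 3 to 4 in KitWsh_MC minus KitWsh, 1 to 2 in KitWsh_MCifngR minus KitWsh_MC and 1 to 4 in KitWsh_MCigeR minus KitWsh_MC. In KitWsh_MCigeR OVA minus PBS the sign turned for H2-Ab1 (-0.029) and H2-DMa (-0.17) without PBS arrays 2 and 3, and for H2-DMa (-0.034) with array weights; the cause was not tested. Of the other alternatives for single genes, 189 kept direction and side of the threshold, 65 passed it newly and 78 lost it. The fits of probe sets without KitWsh_MC OVA array 2 or without 4 arrays were added after the data were seen. No paired analysis was possible because the numbers in the labels run over the whole series and are shared by no 2 groups.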
